A study of Homo sapiens with 6 samples.

Results

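The 10 genes described here form the switch that lets a cell pass from G1 into S phase: the D cyclins CCND1, CCND2 and CCND3, their kinases CDK4 and CDK6, the CIP/KIP inhibitors CDKN1A (p21) and CDKN1B (p27), the INK4 inhibitors CDKN2A (p16) and CDKN2B (p15), and RB1. They were chosen by gene symbol, and all 10 were found among the 23062 identifiers of the deposited tables. RNA was sequenced from DU145 cells, an established human prostate cancer line that came from a brain metastasis and is labelled WT in every library. In 3 libraries the cells had been kept in MEM medium (control), and in the other 3 they had been treated with 56 µM taraxasterol (TAX), a plant triterpene given at its IC50, each for 48 h. TAX was dissolved in DMSO, and whether the control cells received DMSO is not stated, so TAX and its solvent cannot be told apart. The unit of the deposited values is not named. They were read as FPKM, fragment counts scaled to transcript length and library size, and on that reading levels can be compared between genes. Nothing in the labels says that the libraries of a group came from separate cultures, and p-values therefore measure only the spread between these libraries, which may be technical.

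In G1 the D cyclins are made in response to growth signals and bind CDK4 or CDK6. The active kinases phosphorylate the RB protein, which then releases the E2F transcription factors that switch on the genes of S phase. INK4 proteins bind CDK4 and CDK6 directly and keep cyclin D away, while p21 and p27 bind complexes of cyclin and CDK and mainly block CDK2. DU145 is known as a line without functional RB protein and with mutated p53, the factor best known for switching on CDKN1A.

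CCND1 mRNA was higher in each TAX library than in every control library, by 31.0% on average, the largest relative difference among the 9 genes that could be tested. Its adjusted p was 0.0731 (limma with Benjamini-Hochberg adjustment over 12359 genes), so CCND1 did not pass the threshold of 0.05. Of the 10 genes, 9 had enough FPKM to be tested and 0 passed, beside 0.477% of all tested genes. At an unadjusted p under 0.05 there were 3 genes, CCND1, CDKN1A and CDK4, each with the higher mean after TAX treatment, and 0 with the lower mean. Among all tested genes 7.73% met this limit with a higher and 2.41% with a lower mean, or 5.52% and 6.59% once each library was centred on its median, when CCND1 and CDKN1A still met it. In RNA from whole cultures, more cells in one phase of the cycle and more RNA in each cell cannot be told apart. CDKN1B, CDKN2A, CDKN2B, CCND3 and RB1 differed by at most 7.15% between the group means, and their groups overlapped. Genes were tested if 3 or more of the 6 libraries reached 1 FPKM, and differences are on the log2(FPKM + 1) scale, which understates them at low levels.

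**Figure D1:**
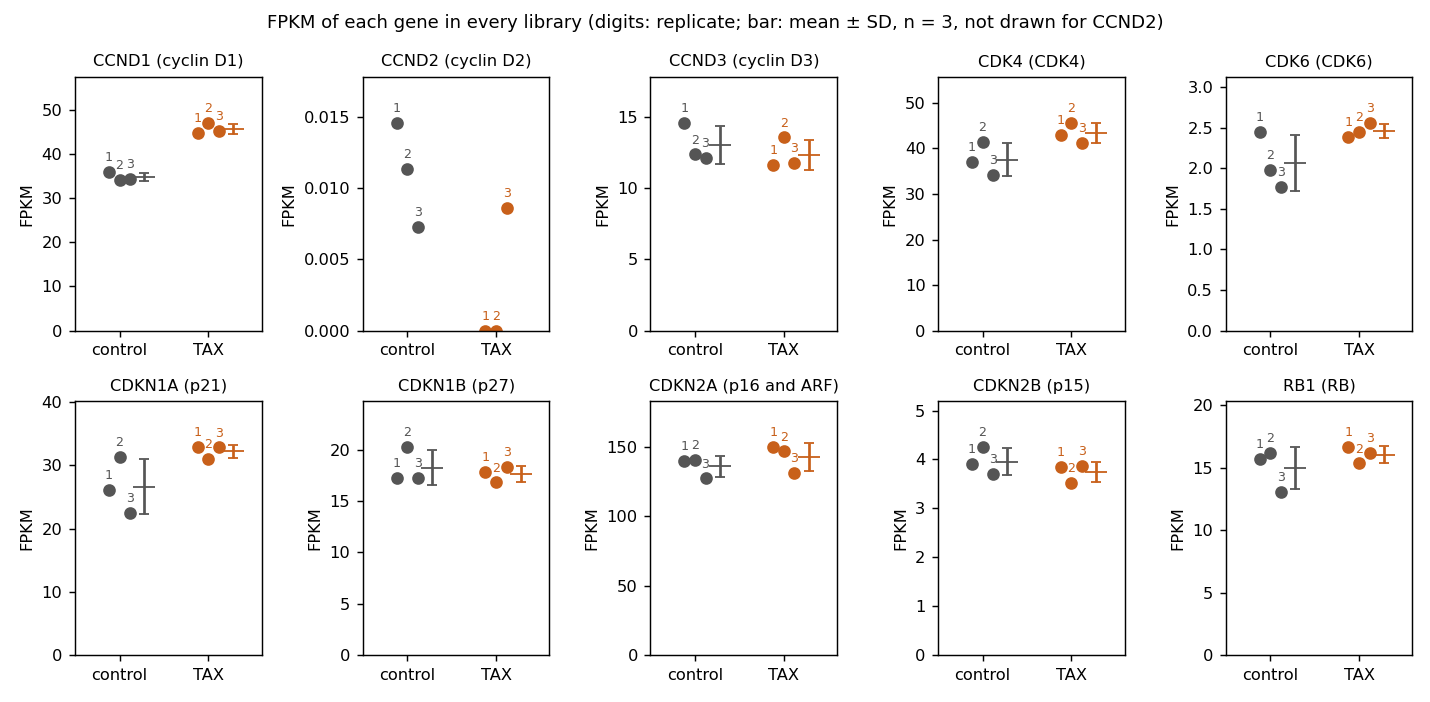
FPKM (vertical axes, each from 0) of the 10 genes in control (grey) and TAX-treated (orange) DU145 cells, 1 point per library with its replicate number, and mean ± SD of 3 libraries beside the points (not drawn for CCND2, which is listed at 0 in 2 libraries). CCND1 is the gene of which all 3 TAX points, 44.8 to 47.1 FPKM, lie above all 3 control points, 34.2 to 36.0 FPKM.

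The summed FPKM ranged from 322483 to 363724 per library and was lowest in control replicate 3. In control replicate 3 all 9 tested genes of the set lay below their control mean, as did 84.4% of all tested genes, and values without this library are given beside the results it moved most. Epithelial markers (EPCAM, CDH1, KRT8, KRT18 and KRT19) were present in all 5 cases, at 40.7 to 173 FPKM. They summed to between 428 and 545 FPKM in control and to between 555 and 606 FPKM in TAX libraries. Of the 5 markers 4 had a higher mean after TAX treatment, beside 69.1% of all tested genes, and 0 had an adjusted p under 0.05 (limma). CDH1 went the other way, averaging 54.1 FPKM in control and 47.5 FPKM in TAX libraries, with overlap. KRT18 and KRT19 had unadjusted p-values of 0.0225 and 0.0108 (limma), a limit of 0.05 that 7.73% of all tested genes met with a higher mean. Of 10 markers of leukocytes, endothelial cells and fibroblasts, 8 stayed at or below 0.0755 FPKM, PTPRC, CD3E, PECAM1 and DCN among them. The exceptions were CD68, a lysosomal protein, at 20.01 to 26.7 FPKM in control and 32.5 to 33.4 FPKM in TAX libraries, and COL1A1, a collagen chain, at 1.89 to 2.08 FPKM in control and 1.42 to 1.48 FPKM in TAX libraries, neither with overlap (adjusted p = 0.0884 and 0.197 from limma). The 10 markers summed to between 21.97 and 28.8 FPKM in control and to between 34.0 and 35.0 FPKM in TAX libraries, nearly all of it CD68. The part of these markers in the results was not tested.

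CCND1 encodes cyclin D1, the D cyclin that many epithelial tumors rely on, and lies on chromosome 11 from 69641087 to 69654474 (GRCh38, plus strand). In the order of the replicate numbers, its level was 36.0, 34.2 and 34.5 FPKM in the control and 44.8, 47.1 and 45.3 FPKM in the TAX libraries, and all later triples follow that order. The 2 groups did not overlap, and the spread within each was small beside the gap between them. CCND1 averaged 34.9 ± 0.933 FPKM without and 45.7 ± 1.24 FPKM with TAX (SD, n = 3), a ratio of 1.31. Groups that do not overlap in this direction were found for 14.6% of all tested genes, and for the opposite direction for 3.34%. Its log2 fold change was 0.38 (standard error 0.075, 95% interval 0.21 to 0.54, unadjusted p = 0.000409, adjusted p = 0.0731 from limma), rank 69 by p among 12359 genes. With 3 against 3 libraries an exact two-sided permutation test cannot go below p = 0.1, which is what it gave. After each library was centred on its median the log2 fold change was 0.32, and the median log2 fold change of all genes was 0.054 before centring. Exons of LTO1, on the opposite strand, overlap CCND1, and whether the libraries kept the strand is not stated. LTO1 had 9.79 to 12.5 FPKM in control and 11.2 to 14.2 FPKM in TAX libraries, with overlap.

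The study measured cyclin D1 mRNA by real-time qPCR with GAPDH as the reference, and the primer pairs show which part of each mRNA that assay reads. They were matched without mismatch to the transcripts of GENCODE 29 (GRCh38). The stretches between the primers, from 1 transcript of each gene, are shown 5′ to 3′, with the primer sites in capitals.
CCND1 product: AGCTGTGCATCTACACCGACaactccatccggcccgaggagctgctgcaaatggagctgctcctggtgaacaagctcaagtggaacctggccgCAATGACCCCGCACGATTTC
GAPDH product: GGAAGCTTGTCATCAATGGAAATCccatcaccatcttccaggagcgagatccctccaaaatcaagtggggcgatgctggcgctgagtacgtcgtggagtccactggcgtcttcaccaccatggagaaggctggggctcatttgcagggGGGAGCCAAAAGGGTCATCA
The forward CCND1 primer lies in exon 2 from 69643200 to 69643219 and the reverse primer in exon 3 of 5 from 69643878 to 69643897 on chromosome 11, both within the coding sequence. The product of 113 bp crosses 1 intron and is found in 2 of the 6 annotated CCND1 transcripts, while the FPKM of CCND1 is 1 value for the whole gene. The GAPDH pair reads from exon 4 to exon 6 of 9 on chromosome 12, from 6536748 to 6537134, with a product of 168 bp, and both sites also occur in transcripts of 6 other genes.

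The same ratio was formed from the RNA sequencing. GAPDH, a glycolytic enzyme, had 2171, 2367 and 1783 FPKM in the control libraries and 2230, 2240 and 2155 FPKM in the TAX libraries. For every 1000 FPKM of GAPDH there were 16.6, 14.5 and 19.3 FPKM of CCND1 in the control and 20.1, 21.03 and 20.998 FPKM in the TAX libraries. All TAX libraries were again the higher ones, though control replicate 3, in which GAPDH was lowest, came close to them. The log2 ratio of CCND1 to GAPDH was -5.91 ± 0.210 without and -5.59 ± 0.0384 with TAX (SD, n = 3), a difference of 0.31 (exact permutation test, two-sided p = 0.1). It was 0.42 without control replicate 3 and 0.21 without control replicate 2. In control cells the coefficient of variation was 14.1% for GAPDH and 2.67% for CCND1.

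Over the mean of 6 reference genes (GAPDH, ACTB, B2M, TBP, HPRT1 and PPIA) the difference was also 0.31, without overlap. TBP, the TATA-box binding protein, was the reference that differed least between the groups, and over it CCND1 was higher by 0.39 on the log2 scale. With HPRT1 the difference was 0.20 and with PPIA 0.28, both without overlap. With B2M, which was lower in every TAX library, it was 0.55. With ACTB it was 0.13 and the groups overlapped, with ACTB at 768 FPKM in control replicate 3 and at 1112 to 1227 FPKM in the other libraries. ACTB, B2M, TBP, HPRT1 and PPIA as single references were chosen after the data were examined.

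**Figure D2:**
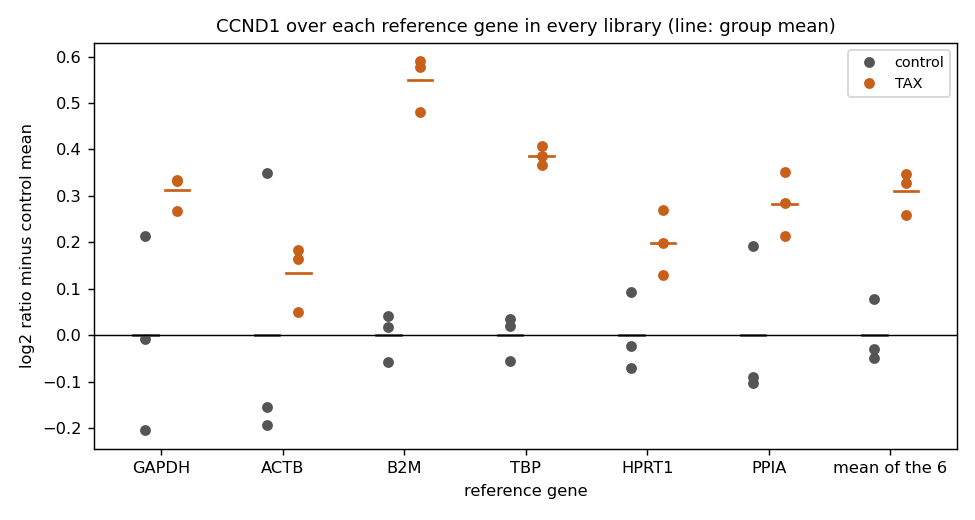
Log2 ratio of CCND1 to each of 6 reference genes, and to their mean, minus the control mean of that ratio (vertical axis), for 3 control libraries (grey) and 3 TAX libraries (orange), with lines at the group means. The TAX mean is above the control mean with every reference, from 0.13 with ACTB, where the points overlap, to 0.55 with B2M.

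CCND3, on chromosome 6 from 41934933 to 42050357 (minus strand), encodes cyclin D3, the second D cyclin of these cells. It had 14.6, 12.4 and 12.2 FPKM in the control libraries and 11.6, 13.6 and 11.8 FPKM in the TAX libraries. The groups overlapped, and the log2 fold change of CCND3 was -0.07 (95% interval -0.29 to 0.14, adjusted p = 0.805 from limma). Without control replicate 1, the highest of the 6, it was 0.0043, and without control replicate 3 it was -0.12. CCND2, on chromosome 12 from 4273772 to 4305350, encodes cyclin D2 and was almost absent. It was listed at 0.0146, 0.0113 and 0.00729 FPKM in control and at 0, 0 and 0.00863 FPKM in TAX libraries, all far below the limit for testing. In a fit to which it was added, the log2 fold change of CCND2 was -0.01 (adjusted p = 0.966 from limma). A 0 here can be a failed estimate, and depth is unknown.

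CCND1 therefore made up most of the D cyclin mRNA. Its share of the summed FPKM of CCND1, CCND2 and CCND3 was 71.1%, 73.4% and 73.9% in the control and 79.4%, 77.6% and 79.3% in the TAX libraries. The share was higher in every TAX library, by 5.95 percentage points on average (two-sided p = 0.1 in an exact permutation test). Being a ratio within each library, the share does not depend on how libraries are scaled. The longest identical run between CCND1 transcripts and those of CCND2 or CCND3 was 23 bases.

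CDK4 and CDK6 encode the kinases that D cyclins activate. CDK4, on chromosome 12 from 57747727 to 57756013 (minus strand), had 37.1, 41.4 and 34.1 FPKM in control and 43.0, 45.6 and 41.3 FPKM in TAX libraries. Control replicate 2 lay just above TAX replicate 3, so the groups overlapped. CDK4 averaged 37.6 ± 3.65 FPKM without and 43.3 ± 2.195 FPKM with TAX (SD, n = 3). For CDK4 the log2 fold change was 0.20 (95% interval 0.0026 to 0.40, unadjusted p = 0.0476, adjusted p = 0.487 from limma). Without control replicate 3 it was 0.14 with an unadjusted p of 0.0998, and after centring on the library median it was 0.15 with an unadjusted p of 0.0531 (limma). Exons of TSPAN31, on the opposite strand, overlap CDK4, and TSPAN31 had 3.60 to 6.52 FPKM with overlap between the groups.

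CDK6, on chromosome 7 from 92604921 to 92836594 (minus strand), was far less abundant, with 2.45, 1.98 and 1.77 FPKM in control and 2.39, 2.45 and 2.56 FPKM in TAX libraries. TAX libraries were close to each other, and control replicate 1 lay among them. CDK6 had a log2 fold change of 0.18 (95% interval -0.028 to 0.39, adjusted p = 0.543 from limma). It was 0.27 without control replicate 1 and 0.11 without control replicate 3, with an unadjusted p of 0.0123 and 0.243 (limma). CDK6 held 4.57% to 6.19% of the summed FPKM of both kinases in control and 5.09% to 5.85% in TAX libraries (exact permutation test, two-sided p = 0.8), and the difference of 0.17 percentage points was -0.164 without control replicate 2. Transcripts of CDK4 and CDK6 share no identical run of more than 16 bases.

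Promoter sequences of 8 of the 10 genes were taken from RefSeq (GRCh38.p14). CCND1 and CCND2 had no entry in the set used, so their promoters were not examined. Those of CDK4 and CDKN1A are shown because these genes, with CCND1, had an unadjusted p under 0.05 (limma). The window shown for CDK4 is the 250 bases before its RefSeq start site, chr12:57752311-57752560 on the minus strand. It holds the E-box CACGTG, the letters that MYC and its partner MAX bind, 3 times, shown in capitals. None of the other windows of the 8 genes holds it. Which motif to mark was chosen gene by gene, the E-box for CDK4 and another for CDKN1A. CACGTG reads the same on both strands and is found at least once in 6.34% and at least 3 times in 0.0797% of 35116 promoter windows of this length.
CDK4 promoter: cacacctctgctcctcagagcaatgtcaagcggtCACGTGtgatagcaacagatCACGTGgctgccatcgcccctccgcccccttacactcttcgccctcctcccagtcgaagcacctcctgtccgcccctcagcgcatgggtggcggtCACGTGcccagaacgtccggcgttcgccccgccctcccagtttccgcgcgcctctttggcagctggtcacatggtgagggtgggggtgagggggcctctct
The matching window of CDKN1A, chr6:36678464-36678713 on the plus strand, holds the GC box GGGCGG, the letters that SP1 binds, 4 times, of which 1 pair overlaps by a single base. This motif was searched on both strands and is found at least once in 42.6% and at least 4 times in 7.63% of the windows. The CDK4 window also holds it 3 times, left in lower case above. The CCND3 windows hold it 5, 2 and 0 times, the CDK6 windows 3 and 0 times and the CDKN2A windows 0 and 1 times. In the windows of CDKN2B, CDKN1B and RB1 it occurs 2, 1 and 0 times.
CDKN1A promoter: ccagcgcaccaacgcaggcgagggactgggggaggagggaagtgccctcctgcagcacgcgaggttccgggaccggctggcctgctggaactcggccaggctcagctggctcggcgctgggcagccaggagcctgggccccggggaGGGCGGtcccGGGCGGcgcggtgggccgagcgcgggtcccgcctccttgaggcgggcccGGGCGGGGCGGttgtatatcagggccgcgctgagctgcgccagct
A match describes the letters and does not show that a factor binds there. The E2F motif (TTTCGCGC, TTTGGCGC or TTTCCCGC, both strands) occurred in 0 of the 12 windows of the 8 genes and in 2.32% of all windows. The RB1 window, from 48476200 to 48476449 on chromosome 13, lies inside the gene. All windows of CDK4, CDKN1A, CDKN1B and CCND3 also lie inside the spans given here for these genes. For RB1 and these genes the stretch before the first base of the span was not searched.

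CDKN1A encodes p21, the CIP/KIP inhibitor that p53 and several other factors induce, and lies on chromosome 6 from 36676460 to 36687339 (plus strand). It had 26.2, 31.3 and 22.5 FPKM in control and 32.9, 31.1 and 32.9 FPKM in TAX libraries. The TAX libraries lay close together, while the control libraries were spread widely and control replicate 2 reached the TAX level. CDKN1A averaged 26.7 ± 4.40 FPKM without and 32.3 ± 1.04 FPKM with TAX (SD, n = 3). For CDKN1A the log2 fold change was 0.28 (95% interval 0.034 to 0.52, unadjusted p = 0.0291, adjusted p = 0.435 from limma). The control libraries weighed on it, as CDKN1A gave 0.17 (unadjusted p = 0.0842) without control replicate 3 and 0.40 (unadjusted p = 0.00198) without control replicate 2 (limma).

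CDKN1B encodes p27, the inhibitor that accumulates in resting cells, and lies on chromosome 12 from 12715058 to 12722371 (plus strand). It had 17.2, 20.2 and 17.3 FPKM in control and 17.9, 16.8 and 18.3 FPKM in TAX libraries. No library stood out other than control replicate 2, which was the highest. CDKN1B had a log2 fold change of -0.04 (95% interval -0.24 to 0.15, adjusted p = 0.883 from limma), or 0.031 without control replicate 2. The ratio of both inhibitors was also formed, a comparison chosen after the values were seen. CDKN1A was at 1.52, 1.55 and 1.304 times the FPKM of CDKN1B in control and at 1.84, 1.85 and 1.79 times in TAX libraries. The ratios of the TAX libraries were all above those of the control libraries, control replicate 2 included, in which both genes were highest among the controls. Because the ratio was picked with these values in view, this separation is a description and not a test.

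CDKN2A was the most abundant of the 10 genes. It lies on chromosome 9 from 21967753 to 21995301 (minus strand) and encodes p16 and, in another reading frame, ARF, which the deposited value does not separate. It had 140.0, 141 and 127 FPKM in control and 150 (TAX replicate 1), 147 and 131 FPKM in TAX libraries, more than 97.5% of all tested genes in control cells. In each group replicate 3 was the lowest, and the groups overlapped. The log2 fold change of CDKN2A was 0.07 (95% interval -0.13 to 0.27, adjusted p = 0.807 from limma), or -0.01 after quantile normalization. Without control replicate 3 CDKN2A gave 0.021, and over the fits without 1 library it ranged up to 0.13, the value without TAX replicate 3. CDKN2B encodes p15, an inhibitor best known as a target of TGF-beta signaling, and is the neighbour of CDKN2A from 22002903 to 22009363. It had 3.91, 4.25 and 3.70 FPKM in control and 3.85, 3.51 and 3.87 FPKM in TAX libraries. These groups overlapped as well, and the log2 fold change of CDKN2B was -0.06 (95% interval -0.24 to 0.12, adjusted p = 0.809 from limma), or -0.10 without control replicate 3.

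CDKN2A held 97.1% to 97.3% of the INK4 mRNA in control and 97.1% to 97.7% in TAX libraries. The paralogs share an identical run of 80 bases, so reads can fall on both, and 0.765% of all windows of 50 bases in CDKN2B transcripts also occur in those of CDKN2A. Summed INK4 mRNA was 3.64, 3.34 and 3.64 times the summed FPKM of CDK4 and CDK6 in control and 3.38, 3.12 and 3.08 times in TAX libraries. Control replicate 2 fell among the TAX libraries, and the difference of -0.15 on the log2 scale gave p = 0.2 in an exact permutation test (two-sided). Summed CIP/KIP mRNA was 0.858, 1.10 and 0.854 times the summed D cyclins in control and 0.900, 0.789 and 0.897 times in TAX libraries, with overlap (exact permutation test, two-sided p = 0.6). The difference of the log2 ratio was -0.12, and 0.0072 without control replicate 2.

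RB1, the target of the D cyclin kinases, lies on chromosome 13 from 48303726 to 48599436 (plus strand). Its mRNA was present at 15.7, 16.2 and 13.1 FPKM in control and at 16.7, 15.3 and 16.2 FPKM in TAX libraries, a level that says nothing of the protein. Control replicate 3 was the lowest and the other libraries lay between 15.3 and 16.7 FPKM. The log2 fold change of RB1 was 0.10 (95% interval -0.11 to 0.30, adjusted p = 0.730 from limma), and 0.0097 without control replicate 3.

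**Figure D3:**
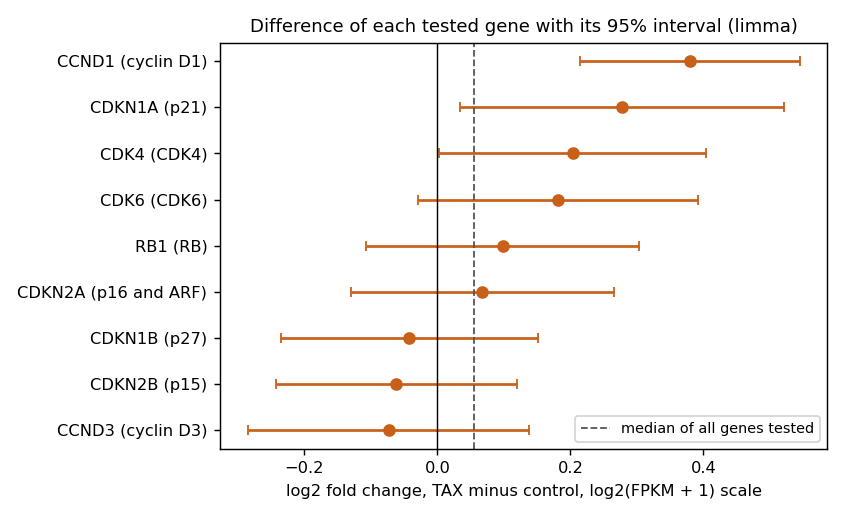
Log2 fold change of the 9 tested genes, TAX minus control, on the log2(FPKM + 1) scale (horizontal axis) with 95% intervals from limma, beside 0 (solid line) and the median of all 12359 tested genes, 0.054 (dashed line). The intervals of CCND1, CDKN1A and CDK4 lie above 0, and that of CCND1, from 0.21, also lies above the median of all genes.

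Ordered by control mean, the levels ran from CDKN2A (136 FPKM) over CDK4, CCND1, CDKN1A, CDKN1B, RB1 and CCND3 (13.1 FPKM) to CDKN2B (3.96 FPKM), CDK6 (2.07 FPKM) and CCND2. The ranges of CDK4 and CCND1 overlapped, as did those of RB1 and CCND3, so their order is not resolved. After TAX treatment CCND1 came before CDK4, again with overlapping ranges, and the rest of the order was as in control cells. Summed over each pool, the D cyclins had 46.7 to 50.6 FPKM in control and 56.4 to 60.7 FPKM in TAX libraries, and CDK4 with CDK6 had 35.9 to 43.4 FPKM and 43.8 to 48.1 FPKM, neither with overlap (exact permutation test, two-sided p = 0.1 for each). Among single tested genes 14.6% had groups without overlap in this direction. The kinase sums of control replicate 2 and TAX replicate 3 nearly met, and CDK4 and CDK6 each overlapped singly. The CIP/KIP sum, at 39.8 to 51.5 FPKM and 47.9 to 51.2 FPKM, and the INK4 sum, at 131 to 145 FPKM and 135 to 154 FPKM, overlapped between the groups.

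**Figure D4:**
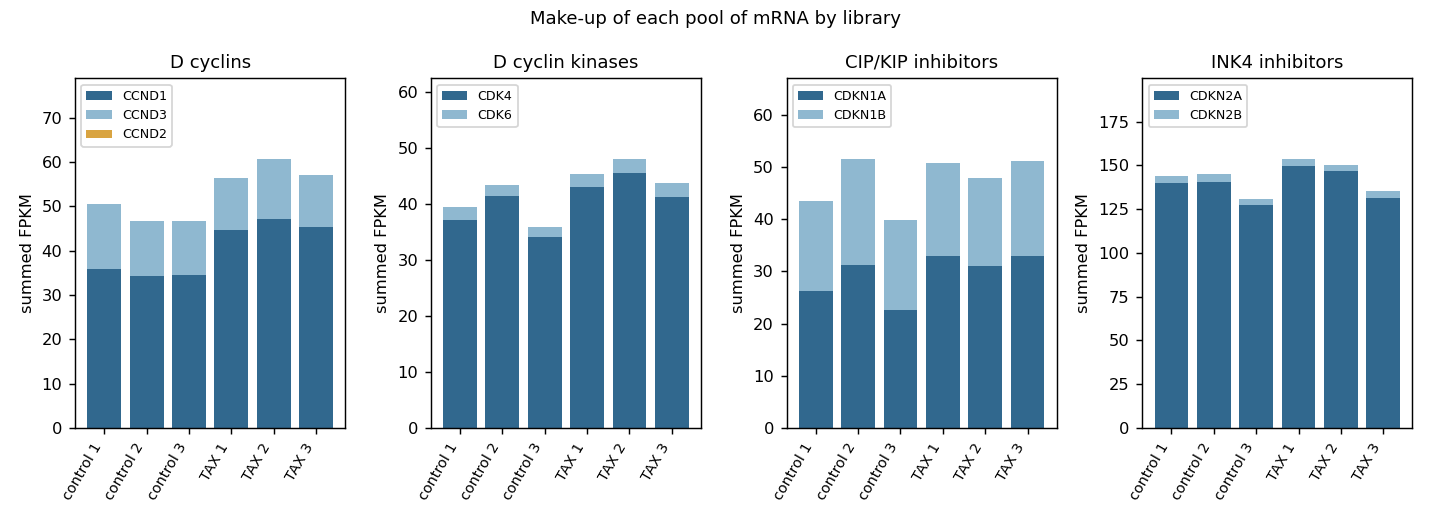
Summed FPKM (vertical axes, from 0) of the D cyclins, their kinases, the CIP/KIP and the INK4 inhibitors in each of the 6 libraries, with each bar divided by gene. CCND1 fills 71.1% to 73.9% of the D cyclin bars in control and 77.6% to 79.4% in TAX libraries, and CDKN2A fills at least 97.1% of every INK4 bar.

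The other genes of the G1 to S transition were followed as a list of 30, of which 29 were tested. After TAX treatment 23 had a higher and 6 a lower mean, beside 69.1% with a higher mean among all tested genes, and their median log2 fold change was 0.059 beside 0.054. Once each library was centred on its median the split was 15 higher and 14 lower, and without control replicate 3 it was 18 and 11. Of these 29 genes 0 passed at an adjusted p under 0.05 (limma), while 3 had an unadjusted p under 0.05, all with the higher mean, beside 7.73% of all tested genes with a higher and 2.41% with a lower mean. After median centring 1 of these 3 met this limit, FBXO31, which missed it without control replicate 3 (unadjusted p = 0.0531 from limma). The F-box protein FBXO31, which directs cyclin D1 to degradation after DNA damage, averaged 4.43 ± 0.614 FPKM without and 5.49 ± 0.256 FPKM with TAX and did not overlap (SD, n = 3, adjusted p = 0.406 from limma). E2F7, a repressor of the E2F family, averaged 3.72 ± 0.0358 and 4.36 ± 0.0201 FPKM, also without overlap (SD, n = 3, adjusted p = 0.437 from limma). CDK7, the kinase that activates other CDKs, averaged 20.4 ± 1.02 and 23.6 ± 1.31 FPKM, again without overlap (SD, n = 3, adjusted p = 0.454 from limma). Groups without overlap and with higher TAX values were found for 7 of the 29 genes and the opposite for 0, beside 14.6% and 3.34% of all tested genes. By role, 9 of 10 E2F and DP factors, 3 of 3 genes of the CDK-activating kinase and 6 of 8 genes of cyclin and p27 turnover had a higher mean, with medians of 0.087, 0.052 and 0.038 on the log2 scale. After median centring these counts were 7 of 10, 1 of 3 and 3 of 8. Of the genes of the cyclin E arm (CCNE1, CCNE2, CDK2 and CDC25A) 2 had a higher and 2 a lower mean.

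Where the RB protein is functional, E2F targets are the output of the switch, but DU145 is known as a line without it. All 18 listed targets were tested, among them the MCM helicase subunits, RRM1 and RRM2 of nucleotide supply, PCNA, the sliding clamp of replication, and CCNA2, the cyclin of S phase. Of them 16 had a higher and 2 a lower mean with TAX, beside 69.1% with a higher mean among all tested genes. Their log2 fold changes ran from -0.12 to 0.15, with a median of 0.068 beside 0.054 for all tested genes. After median centring 10 were higher and 8 lower, and without control replicate 3 the split was 11 and 7. At an adjusted p under 0.05 there were 0 such genes, and also 0 at an unadjusted p under 0.05 (limma). TK1, thymidine kinase, was the target whose groups did not overlap, at 63.2 to 68.3 FPKM in control and 71.7 to 76.2 FPKM in TAX libraries, 1 of 18 beside 14.6% of all tested genes. It was chosen after its values were seen.

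**Figure D5:**
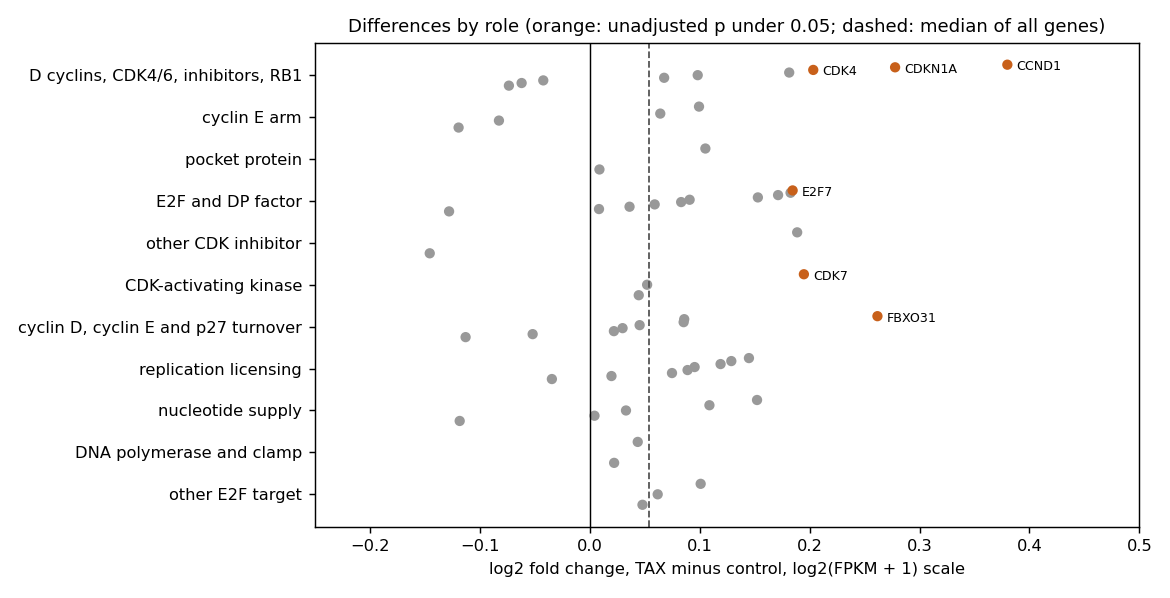
Log2 fold change, TAX minus control, on the log2(FPKM + 1) scale (horizontal axis) of the 9 tested genes of the set, 29 partners of the G1 to S transition and 18 E2F targets, 1 point per gene and 1 row per role, with an unadjusted p under 0.05 (limma) in orange. CCND1, at 0.38, is the point farthest to the right, and the E2F targets lie between -0.12 and 0.15.

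Among the tested genes with a gene symbol, those whose pattern over the 6 libraries was most like that of CCND1 were TMOD2, EDN2 and HMGA2. Pearson's r of log2(FPKM + 1) with CCND1 was 0.996 for each of the 3 genes, and 91 of all tested genes had an r of at least 0.95. Such values describe the 6 libraries, which share 1 difference between 2 groups. HMGA2, a chromatin protein of embryonic and tumor cells, had 2.98, 2.79 and 2.76 FPKM in control and 4.44, 4.75 and 4.24 FPKM in TAX libraries. EDN2, the peptide endothelin 2, had 1.58, 1.54 and 1.54 FPKM in control and 2.53, 2.87 and 2.59 FPKM in TAX libraries. HMGA2 and EDN2 had adjusted p-values of 0.0275 and 0.0254 (limma), under the limit of 0.05 that 0.477% of all tested genes met. TMOD2, a cap of actin filaments, had 2.76 to 2.83 FPKM in control and 3.20 to 3.26 FPKM in TAX libraries. Its adjusted p was 0.492 (limma). The 3 genes were picked by their pattern over these same 6 libraries, so these p-values are not separate evidence.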

How the data were processed

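For each library the authors deposited a gene table whose unit is not named. Its values were read as FPKM, since they are not whole, their totals vary, and some identifiers carry the prefix of StringTie's merge step. The submitters' processing notes name HISAT2 2.2.0, StringTie 2.1.2 and GRCh38, and the annotation, filters and strand setting are not given in the sources used here. FPKM was divided by the authors by gene length and library size, and no step of single reads was seen among low values, so depth is unknown and no counting interval is given. From these values log2(FPKM + 1) was fitted with limma 3.58.1 in R 4.3.3 (eBayes with trend, no covariate). Genes were kept if 3 or more of 6 libraries reached 1 FPKM, and p-values of these 12359 genes were adjusted by Benjamini-Hochberg. Ratios and shares were compared with exact two-sided permutation tests (SciPy 1.17.1).

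The genes and lists were chosen with earlier results of these data known. Most genes were named by rule: the 10 genes, reference genes, markers, overlapping genes and the 3 genes most like CCND1. From each list the rule took genes with an adjusted p under 0.05 or the 4 smallest unadjusted p under 0.05. Identifiers with StringTie's prefix were left out of the search for genes like CCND1. The genes of the cyclin E arm and RRM1, RRM2, PCNA and CCNA2 were named outside this rule as parts of their lists, and TK1 after its values were seen. Positions come from GENCODE 29 and promoters from RefSeq. Alternatives were another pseudocount (0.1), other filters, quantile normalization, median centring, limma without trend, a replicate block and leaving out each library. Rescaling to a common sum and single reference genes were added after the data were examined. Results of 1 list of marker genes are not reported here.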

Additional observations from a re-analysis of the deposited data

How the results depend on the processing

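Of the 10 genes 0 had an adjusted p under 0.05 (limma) in the reported fit and in each of 14 alternatives, as was also the case for the partners of the G1 to S transition and for the E2F targets. The log2 fold change of CCND1 lay between 0.31 and 0.40 over the 14 alternatives, with adjusted p from 0.0517 to 0.278 and an unadjusted p under 0.05 in all 14. CDKN1A kept an unadjusted p under 0.05 in 10 and CDK4 in 6 of them. With the replicate number as a block the log2 fold change of CCND1 stayed at 0.38 with an adjusted p of 0.220 (limma), but the numbers were not found to pair the samples, since deviations of libraries with the same number correlated at -0.12, -0.33 and -0.17 over genes. The direction changed for CCND3 without control replicate 1 (-0.139 to 0.0043 over the fits without 1 library), for CDKN1B without control replicate 2 (-0.079 to 0.031) and for CDKN2A after quantile normalization (-0.014), none of which passed the test. The ratio of CCND1 to its reference moved by more than the spread between libraries with ACTB (0.13) and with B2M (0.55) in place of GAPDH. Without control replicate 2 the log2 ratio of CIP/KIP inhibitors to D cyclins was 0.0072, and the cause was not tested. Over all genes the number with an adjusted p under 0.05 was 59 in the reported fit, 37 with a filter at 0.1 FPKM, 1 with no filter (1244 with a higher and 610 with a lower mean at an unadjusted p under 0.05), 95 after quantile normalization, 96 after median centring, 26 with the replicate block (under which 1 partner of the G1 to S transition, FBXO31, kept an unadjusted p under 0.05) and 18 to 43 without 1 library. Unadjusted p under 0.05 was found for 955 genes with a higher and 298 with a lower mean, but for 745 and 715 after quantile normalization and 682 and 815 after median centring. Depth is unknown, so what a level near 0, such as that of CCND2, allows cannot be given.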
